A study of Mus musculus with 62 samples.

Results

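The pituitary samples of a mouse RNA sequencing study of Nova1 deletion were analysed, 6 of its 62 samples, chosen by their labels as pituitary cKO (n = 3) and pituitary cHet (n = 3). Both groups came from BL6 mice at postnatal day 21. The study asked how gene expression responds in tissues and cultured cells when Nova1 is deleted, and it also holds brain regions, ribosome pull-downs and primary neurons. Per the series' design text, Nova1 is knocked out specifically in inhibitory neurons of cKO mice. Samples labelled cHet serve as the control genotype here. The names of the deposited pituitary tables also carry the words male and gad2, and Gad2 encodes a GABA-synthesising enzyme of inhibitory neurons. The labels do not spell out the alleles of either genotype, cHet included, or the Cre line. They also do not say whether replicates were single animals or pools, so p-values measure only the spread between these samples, part of which may be technical.

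Nova1 encodes a neuronal RNA-binding protein that regulates alternative splicing. The anterior pituitary holds separate hormone cell types: somatotropes make growth hormone, lactotropes prolactin, corticotropes and melanotropes proopiomelanocortin, thyrotropes thyrotropin, and gonadotropes luteinizing hormone and follicle-stimulating hormone. The glycoprotein hormones share the alpha subunit Cga and take their identity from the beta subunits Lhb, Fshb and Tshb. Hypothalamic neurons drive these cells through releasing hormones carried in portal blood, with gonadotropin-releasing hormone acting on gonadotropes, and gonadal and adrenal steroids feed back on them.

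The libraries held 2407122, 2505339 and 2675079 tags in cKO pituitaries and 2643501, 2238743 and 3104026 tags in cHet pituitaries, with between 15425 and 15738 genes carrying at least 1 tag. Of the 23038 genes in the tables, 12265 passed the filter on low counts and were tested, 10773 did not, and 5464 of these had no tag in any of the 6 libraries. The ribosomal RNA precursor Rn45s took 32.6%, 29.98% and 15.4% of tags in cKO pituitaries and 37.8%, 40.8% and 25.6% in cHet pituitaries (means 26.0 ± 9.30% and 34.7 ± 8.02%, exact two-sided permutation p = 0.3, where 0.1 is the smallest p that 3 against 3 allows). The permutation does not use the replicate numbers, and within each number the cKO share was the lower. Rn45s was among the genes that fell once the replicate number was added to the fit, given below. The labelled tissue showed in the defining markers: over the 6 libraries Gh was the gene with the highest mean level per kilobase of exon, 87331 CPM per kb, followed by Rn45s with 54828 and Pomc with 9667 CPM per kb, and Cga and Prl were among the 10 highest. Below, levels are tags per megatag of scaled library size (CPM), listed for replicates 1, 2 and 3, and fold changes are log2 of cKO over cHet. In bulk tissue, fewer cells of a type and less RNA per cell cannot be told apart.

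Nova1 itself, on chromosome 12 (chr12:46697895-46819480, GRCm38), was low in the gland. It had 4.99, 3.90 and 6.18 CPM in cKO pituitaries, against 10.1, 8.14 and 9.20 CPM in cHet pituitaries, from 12, 10 and 21 tags in cKO libraries and 23, 15 and 30 tags in cHet libraries. Every cKO library was below every cHet library. The log2 fold change was -0.85 (SE 0.41), which did not pass the test (adjusted p = 0.761, edgeR's quasi-likelihood test with Benjamini-Hochberg adjustment over all genes tested). Tags were counted over the whole gene, the labels do not give the deleted stretch, and the design text places the knockout in inhibitory neurons. The part of undeleted exons or of other cells in the remaining Nova1 tags was not tested. Gad2 was detected at 7.90, 15.2 and 24.7 CPM in cKO pituitaries and 23.7, 7.06 and 16.9 CPM in cHet pituitaries, with overlapping groups. Nova2, the paralog, had 54.5, 71.1 and 45.02 CPM in cKO pituitaries, against 65.03, 80.9 and 53.4 CPM in cHet pituitaries (-0.22, adjusted p = 0.901). Impact, which encodes an inhibitor of the kinase GCN2 and is named in the study as a Nova1 target, had 95.6, 99.6 and 116 CPM in cKO pituitaries, against 96.2, 124 and 97.5 CPM in cHet pituitaries (-0.02, adjusted p = 0.995). The groups overlapped for both.

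With genotype as the only term, Lhb, the beta subunit of luteinizing hormone, was the 1 gene that fell in cKO pituitaries, with a log2 fold change of -1.70. That is 1 of 12265 genes tested (0.00815%), and 0 genes rose, while 803 genes (6.55%) had an unadjusted p under 0.05. When the replicate number was added as a block, so that cKO 1 is set against cHet 1 and so on, 33 genes changed (0.269%): 16 rose (0.13%) and 17 fell (0.139%). Those that fell included Fshb, growth hormone and the myelin genes Mbp and Mobp, and those that rose included the glucocorticoid-responsive genes Tsc22d3, Zbtb16 and Mt2. Fold changes were split evenly over all genes tested, 6090 above 0 and 6175 below, with a median of -0.00 and a median size of 0.19. All cKO libraries were above all cHet libraries for 691 genes (5.63%) and below them for 732 genes (5.97%); such genes are described below as having separate groups.

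The 33 blocked calls rest on few samples. All 33 kept their direction with the libraries numbered 1, 2 or 3 left out in turn. All 16 that rose were higher in cKO in 3 of 3 pairs, and all 17 that fell in 0 of 3. The kept direction therefore follows largely from the choice of genes and is no separate evidence. The number still called was 22 without number 1, 28 without number 2 and 2 without number 3, Lhb among them (edgeR with the block). Without number 1 the calls of Alox12e, Col6a1, Gh, Gpr153, Igf2, Lmtk3, Nrbp2, Ptprs, Slc15a2, Tgfbi and Zbtb16 were lost. Without number 2 those of Mobp, Nrbp2, Pappa2, Rnf2 and Tgfbi were lost. DESeq2 with the block called 14 of the 33.

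**Figure D1:**
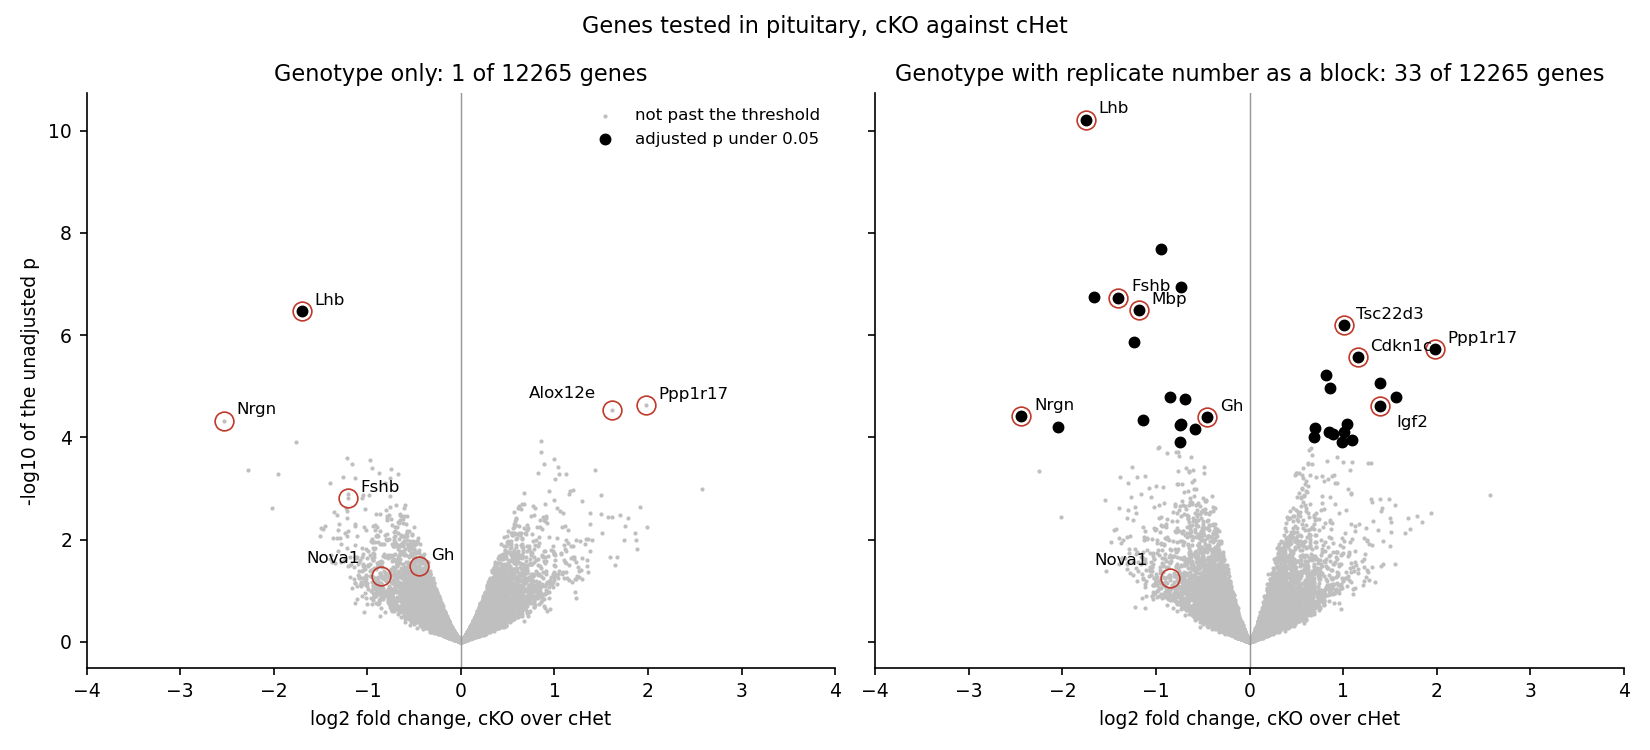
Log2 fold change of cKO over cHet (x axis) against −log10 of the unadjusted p (y axis) for 12265 genes, in the test with genotype alone (left) and with the replicate number as a block (right); marked genes pass an adjusted p of 0.05. With genotype alone 1 gene passes, Lhb, and with the block 33 genes pass, 16 of them higher and 17 lower in cKO pituitaries.

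Lhb lies on chromosome 7 (chr7:45417608-45421855), Fshb on chromosome 2 (chr2:107055986-107059651) and Cga on chromosome 4 (chr4:34893779-34907374), all on GRCm38. Their promoters are shown because the 3 genes of the gonadotropes are driven by partly shared factors and differed in how much they moved. Each sequence is the 250 bases before the transcript start that the RefSeq promoter table (GRCm38.p6) uses, which for Lhb lies inside the annotated span of the gene, read 5′ to 3′ on the gene's strand, at chr7:45420696-45420945 for Lhb (plus strand), chr2:107059652-107059901 for Fshb (minus strand) and chr4:34893529-34893778 for Cga (plus strand).
Lhb promoter: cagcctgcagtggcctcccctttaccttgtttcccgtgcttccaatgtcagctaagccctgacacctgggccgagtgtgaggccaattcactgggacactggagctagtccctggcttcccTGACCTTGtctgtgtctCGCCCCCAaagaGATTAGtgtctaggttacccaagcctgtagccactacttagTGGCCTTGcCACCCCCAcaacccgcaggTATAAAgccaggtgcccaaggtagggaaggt
Fshb promoter: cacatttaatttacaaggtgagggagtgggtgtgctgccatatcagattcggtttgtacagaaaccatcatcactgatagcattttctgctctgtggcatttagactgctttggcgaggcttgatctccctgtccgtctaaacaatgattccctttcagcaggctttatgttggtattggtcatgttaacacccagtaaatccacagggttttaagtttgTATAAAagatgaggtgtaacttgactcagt
Cga promoter: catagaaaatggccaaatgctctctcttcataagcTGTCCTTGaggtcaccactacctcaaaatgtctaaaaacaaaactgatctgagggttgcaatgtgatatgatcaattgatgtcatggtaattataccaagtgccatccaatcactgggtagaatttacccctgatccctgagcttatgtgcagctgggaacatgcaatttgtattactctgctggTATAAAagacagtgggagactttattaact
Capitals mark matches to the letters TGNCCTTG for SF-1 (the product of Nr5a1), CNCCCCCA for EGR1, GATTAG for PITX1 and TATAAA for a TATA box, searched on both strands. Positions count back from the start. The Lhb window held 2 SF-1 matches, at -129 to -122 and -59 to -52, each with an EGR1 match downstream, at -112 to -105 and -50 to -43, and a PITX1 match at -100 to -95. The Cga window held 1 SF-1 match, at -215 to -208, and the Fshb window held none of the first 3. A TATA box lay at -30 to -25 in Fshb and Cga and at -31 to -26 in Lhb. Of 32851 promoter windows of the same length, 5.53% held a match to the SF-1 letters, 12.8% to EGR1, 5.71% to PITX1 and 12.4% to the TATA box. A match is a description of the letters and not evidence of binding.

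Lhb had 50.3, 101 and 53.9 CPM in cKO pituitaries, against 222, 259.5 and 185 CPM in cHet pituitaries, from 121, 258 and 183 tags in cKO libraries and 504, 478 and 602 tags in cHet libraries. All cKO libraries were below all cHet libraries. Lhb averaged 68.3 ± 28.2 CPM in cKO pituitaries and 222 ± 37.5 CPM in cHet pituitaries (SD, n = 3 each). Its log2 fold change was -1.70 (SE 0.22), with adjusted p = 0.00411 in edgeR's quasi-likelihood test, and -1.74 (SE 0.14) with adjusted p = 7.45e-07 with the replicate block. Lhb fell in 17 of 20 alternative analyses and kept its direction in the other 3. The call was lost with the Rn45s share as a covariate (-1.48, adjusted p = 0.13), without cKO replicate 3 (-1.55, adjusted p = 0.0625) and without cHet replicate 2 (-1.57, adjusted p = 0.0692), all in edgeR's test.

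Fshb, the beta subunit of follicle-stimulating hormone, had 46.98, 207 and 85.9 CPM in cKO pituitaries, against 205, 315 and 262 CPM in cHet pituitaries. The groups overlapped narrowly, because cKO replicate 2 lay just above cHet replicate 1, while within each replicate number the cKO library was the lower. The log2 fold change of -1.20 (SE 0.33) missed the threshold with genotype alone (adjusted p = 0.457) and passed it with the replicate block (-1.40, SE 0.18, adjusted p = 0.000455, edgeR). Without cKO replicate 2 it passed with genotype alone (-1.96, adjusted p = 0.00159, edgeR). With the block it did not pass once both libraries numbered 3 were left out (adjusted p = 0.157, edgeR), nor with DESeq2 (adjusted p = 0.351).

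Cga, the alpha subunit shared by gonadotropes and thyrotropes, had 2398, 1974 and 1627 CPM in cKO pituitaries, against 2824, 2322 and 2677 CPM in cHet pituitaries. The cKO library was lower within each number, and the groups overlapped. Cga did not pass the test (-0.38, SE 0.18, adjusted p = 0.749; with the block -0.40, adjusted p = 0.153, edgeR).

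Most other gonadotrope genes did not pass the test. Of the 15 genes on the gonadotrope list, 10 were tested and Dmp1 had no tag in any library. All 10 had a log2 fold change below 0, with a median of -0.43 (-0.00 over all genes). With genotype alone 1 fell (0.00815% of all genes tested), and with the block 3 fell (0.139% of all genes tested): Lhb, Fshb and Spp1. Spp1, which encodes the secreted phosphoprotein osteopontin, had 17.04, 37.5 and 14.7 CPM in cKO pituitaries, against 47.02, 53.8 and 42.01 CPM in cHet pituitaries, with separate groups (-1.05, SE 0.28, adjusted p = 0.432; with the block -1.14, adjusted p = 0.0278, edgeR).

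Apart from Lhb, Fshb, Spp1 and Cga, the other 6 members ranged from -0.50 to -0.05. Gnrhr, the receptor for gonadotropin-releasing hormone, had 29.5, 31.6 and 25.3 CPM in cKO pituitaries, against 26.8, 39.1 and 35.3 CPM in cHet pituitaries (-0.23, adjusted p = 0.907, edgeR). Nr5a1, which encodes the gonadotrope factor SF-1, had 51.96, 38.7 and 26.2 CPM in cKO pituitaries, against 46.6, 37.5 and 42.01 CPM in cHet pituitaries (-0.13). Foxl2, a forkhead factor that activates Fshb, had 27.9, 17.2 and 9.42 CPM in cKO pituitaries, against 25.9, 15.2 and 21.2 CPM in cHet pituitaries (-0.23). The groups overlapped for these 3 genes, and none of them passed either test. Nr5a1 and Foxl2 turned above 0, to 0.088 and 0.059, with the Rn45s share as a covariate.

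**Figure D2:**
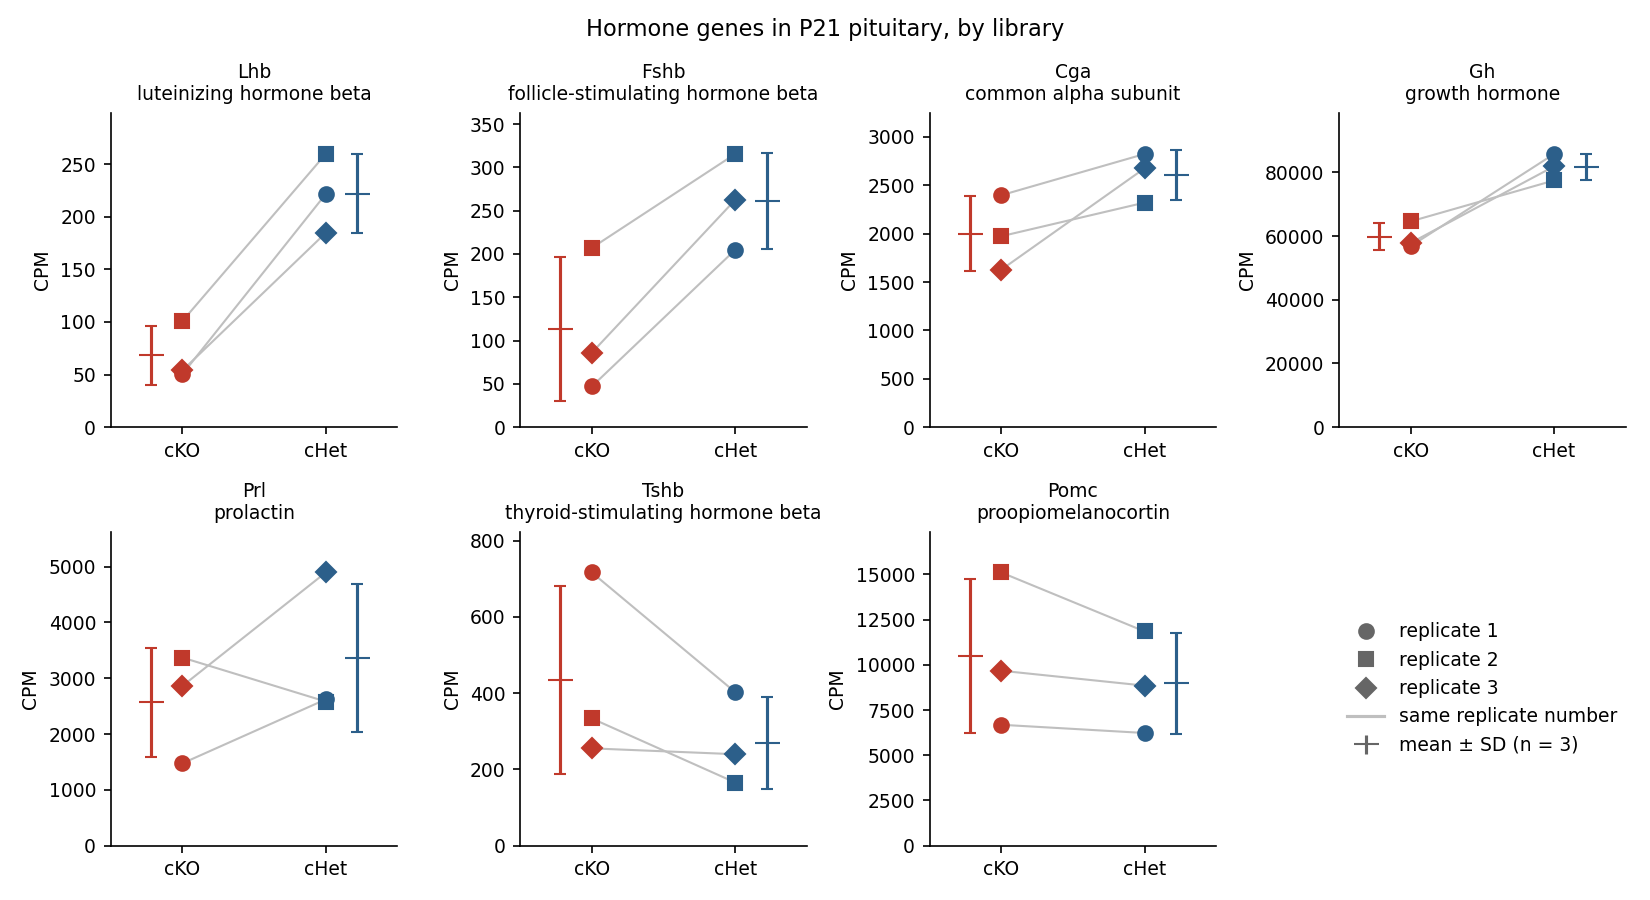
CPM of the 7 pituitary hormone genes in each library (cKO left, cHet right, axes from 0); shapes give the replicate number, grey lines join libraries of the same number, and bars are the mean ± SD (n = 3 each). The 3 cKO libraries lie below the 3 cHet libraries for Lhb and Gh, while Fshb, Cga, Prl, Tshb and Pomc overlap.

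Among the other hormones, growth hormone fell with the block. Gh (chr11:106300261-106303703, GRCm38) had 56840, 64610 and 57850 CPM in cKO pituitaries, against 85770, 77470 and 81890 CPM in cHet pituitaries. All 3 cKO libraries were below all 3 cHet libraries. The log2 fold change of -0.45 (SE 0.20) did not pass with genotype alone (adjusted p = 0.718) and passed with the block (SE 0.09, adjusted p = 0.0257, edgeR). The blocked call was lost in edgeR without the libraries numbered 1 or 3 (adjusted p = 0.09996 and 0.532), and in DESeq2 (adjusted p = 0.0813).

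Prl, which encodes prolactin, had 1475, 3371 and 2862 CPM in cKO pituitaries, against 2621, 2583 and 4896 CPM in cHet pituitaries, and its groups overlapped (-0.39, adjusted p = 0.841; with the block 0.359, edgeR). Tshb, the thyrotropin beta subunit, had 716, 334 and 255 CPM in cKO pituitaries, against 402, 166 and 239.8 CPM in cHet pituitaries. It was higher in the cKO library of each number, without passing (0.69, SE 0.31, adjusted p = 0.731; with the block 0.64, adjusted p = 0.0579, edgeR).

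Pomc, the precursor of corticotropin and melanocyte-stimulating hormone, had 6687, 15110 and 9676 CPM in cKO pituitaries, against 6232, 11850 and 8851 CPM in cHet pituitaries. It varied more between replicate numbers than between genotypes, and the cKO library was higher within each number (0.22, adjusted p = 0.918; with the block 0.51, edgeR). Over the 7 hormone genes, 5 had a fold change below 0 and 2 above, with a median of -0.39 and summed levels of 68210 to 85710 CPM in cKO pituitaries and 94960 to 99000 CPM in cHet pituitaries. With the block 3 of the 7 fell (0.139% of all genes tested), and none rose (0.13% of all genes tested). Lhb and Fshb are also counted on the gonadotrope list.

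The somatotrope, lactotrope and thyrotrope list had 16 of 17 genes tested, 8 above and 8 below 0, with a median of -0.03. Gh, also counted among the hormone genes, was its 1 call with the block (0.139% of all genes tested fell). Pou1f1, the transcription factor that specifies these 3 lineages, had 99.8, 104 and 122 CPM in cKO pituitaries, against 168, 161 and 133 CPM in cHet pituitaries, with separate groups and no call (-0.50, SE 0.16, adjusted p = 0.537; with the block 0.16, edgeR). Sstr5, a receptor for somatostatin, which inhibits growth hormone release, had 5.40, 8.20 and 4.12 CPM in cKO pituitaries, against 8.79, 13.03 and 7.97 CPM in cHet pituitaries (-0.74, with overlapping groups). On the higher side, Trhr, the receptor for thyrotropin-releasing hormone, had 17.9, 5.86 and 16.5 CPM in cKO pituitaries, against 6.59, 5.43 and 6.44 CPM in cHet pituitaries (1.11). Dio2, which converts thyroxine to its active form, had 149, 91.8 and 138 CPM in cKO pituitaries, against 121, 46.7 and 80.95 CPM in cHet pituitaries (0.60; with the block adjusted p = 0.0556, edgeR). Neither Trhr nor Dio2 passed.

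The corticotrope and melanotrope list had 13 of 16 genes tested, with Gzmk and Crhbp at 0 tags in all libraries. Of these, 10 were above and 3 below 0 (median 0.24), and none was called by either fit. The 20 transcription factors of the gland that were tested had 11 above and 9 below 0, a median of 0.05 and no call.

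Pituitary stem and folliculostellate genes had 17 of 20 members tested, 10 above and 7 below 0, with a median of 0.10 and Gfra3 at 0. Cyp2f2, a cytochrome P450 gene on that list, had 178, 145 and 168 CPM in cKO pituitaries, against 68.99, 108 and 95.7 CPM in cHet pituitaries. Its cKO libraries were all above its cHet libraries. It rose with the block (0.86, SE 0.15, adjusted p = 0.0104) and not with genotype alone (0.85, adjusted p = 0.25, edgeR). Cdh26, a cadherin, had 24.9, 22.6 and 42.4 CPM in cKO pituitaries, against 21.97, 16.3 and 16.6 CPM in cHet pituitaries (0.73). Mia1 had 37.00, 61.3 and 70.9 CPM in cKO pituitaries, against 88.3, 79.3 and 86.8 CPM in cHet pituitaries (-0.58), with separate groups. The immediate early gene Fos had 31.2, 79.3 and 64.4 CPM in cKO pituitaries, against 33.4, 131 and 156 CPM in cHet pituitaries (-0.88; with the block adjusted p = 0.0623, edgeR), and did not pass.

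Genes of posterior lobe pituicytes, the glia of that lobe, had no call. Of 12 pituicyte genes 9 were tested, 5 above and 4 below 0, with a median of 0.01. Over all 12, tested or not, summed levels were 743 to 1371 CPM in cKO pituitaries and 768 to 1101 CPM in cHet pituitaries. Col25a1, a transmembrane collagen, had 120.1, 98.4 and 135 CPM in cKO pituitaries, against 58.9, 88.5 and 88.3 CPM in cHet pituitaries (0.58, separate groups, no call). Scn7a, a sodium channel gene of glia, had 111, 87.1 and 123 CPM in cKO pituitaries, against 88.3, 70.04 and 63.2 CPM in cHet pituitaries (0.54). The lineage factors Rax (8.73, 1.17 and 7.06 CPM in cKO pituitaries, 7.47, 6.51 and 4.91 CPM in cHet pituitaries) and Nkx2-1 (5.82, 1.95 and 8.53 CPM in cKO pituitaries, 7.03, 6.51 and 4.60 CPM in cHet pituitaries) overlapped, with cKO replicate 2 the lowest for both.

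Of the 16 glucocorticoid-responsive genes, which adrenal steroids induce in many tissues, all were tested. Tsc22d3, Zbtb16 and Mt2 rose with the block, where 0.13% of all genes tested rose. With genotype alone none was called. Fold changes were above 0 for 14 and below for 2, with a median of 0.43 (-0.00 over all genes). Summed levels were 1805, 1048 and 1178 CPM in cKO pituitaries, against 1064, 861 and 878 CPM in cHet pituitaries. They overlapped, since cHet replicate 1 lay above cKO replicate 2, and were higher in the cKO library of each number.

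Tsc22d3, which encodes the glucocorticoid-induced leucine zipper, had 189, 86.7 and 98.9 CPM in cKO pituitaries, against 79.5, 52.1 and 49.7 CPM in cHet pituitaries. Every cKO library was above every cHet library, with cKO replicate 1 the highest (1.04, SE 0.25, adjusted p = 0.285; with the block 1.01, SE 0.14, adjusted p = 0.00113, edgeR). Zbtb16, a zinc finger repressor, had 107, 48.8 and 62.4 CPM in cKO pituitaries, against 30.8, 46.7 and 24.2 CPM in cHet pituitaries, again with separate groups (1.12, SE 0.27; with the block adjusted p = 0.0448, edgeR). Mt2, a metallothionein, had 242, 109 and 121 CPM in cKO pituitaries, against 119.5, 78.2 and 64.4 CPM in cHet pituitaries and overlapped (0.85; with the block adjusted p = 0.00662, edgeR).

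Fkbp5, a chaperone of the glucocorticoid receptor and a common readout of its activity, had 251, 87.5 and 112 CPM in cKO pituitaries, against 86.1, 89.04 and 68.1 CPM in cHet pituitaries. Replicate 1 of cKO was far above the other 5 libraries, whose values overlapped, and the gene did not pass (0.89, SE 0.27, adjusted p = 0.524; with the block adjusted p = 0.0963, edgeR). Dusp1, a phosphatase gene, ran the other way with 39.9, 89.8 and 57.97 CPM in cKO pituitaries, against 60.2, 90.7 and 125 CPM in cHet pituitaries (-0.57), as did Bcl6 (-0.09), and neither was called.

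Of 18 circadian clock genes tested, 13 were above and 5 below 0, with a median of 0.17 and no call. Cry2, a repressor of the clock, had 88.5, 69.9 and 72.4 CPM in cKO pituitaries, against 50.5, 51.04 and 43.9 CPM in cHet pituitaries, with separate groups (0.67, SE 0.18, adjusted p = 0.432; with the block 0.0783, edgeR). Per2, another repressor, had 50.3, 50.4 and 23.5 CPM in cKO pituitaries, against 22.4, 32.03 and 11.7 CPM in cHet pituitaries (0.94; with the block adjusted p = 0.0682, edgeR). Rora (-0.34) and Bhlhe41 (-0.13) were on the lower side. The hour at which glands were taken is not given in the labels used here, and its part in these values was not tested.

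Ppp1r17, which encodes a protein phosphatase inhibitor, had 27.4, 14.4 and 36.5 CPM in cKO pituitaries, against 7.03, 4.89 and 7.67 CPM in cHet pituitaries, the highest log2 fold change of the 16 genes that rose with the block (1.98, SE 0.30, adjusted p = 0.00254; with genotype alone 1.97, adjusted p = 0.122, edgeR). Alox12e, a lipoxygenase gene, had 56.95, 25.4 and 37.1 CPM in cKO pituitaries, against 9.67, 16.3 and 13.2 CPM in cHet pituitaries (1.57, adjusted p = 0.0134, edgeR with the block). Slc15a2, a peptide transporter, had 67.3, 26.2 and 28.5 CPM in cKO pituitaries, against 19.8, 9.23 and 15.02 CPM in cHet pituitaries (1.39, adjusted p = 0.00901, edgeR with the block). Groups were separate for Ppp1r17, Alox12e and Slc15a2, and cKO replicate 1 was the highest for Alox12e and Slc15a2.

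The extracellular matrix genes Lox, Tgfbi, Col6a1 and Thbs1 rose with the block. Lox, the collagen cross-linking enzyme, had 48.6, 32.4 and 55.9 CPM in cKO pituitaries, against 27.2, 17.9 and 21.5 CPM in cHet pituitaries (1.05, adjusted p = 0.0309, edgeR with the block). Tgfbi, a matrix protein induced by TGF-beta, had 79.4, 65.99 and 62.1 CPM in cKO pituitaries, against 33.8, 36.9 and 42.9 CPM in cHet pituitaries (0.85, adjusted p = 0.0348, edgeR with the block). Col6a1, a collagen VI chain, had 223, 118 and 109 CPM in cKO pituitaries, against 104, 81.4 and 82.2 CPM in cHet pituitaries (0.69, adjusted p = 0.0396, edgeR with the block). The groups were separate for these 3 genes and overlapped for Thbs1, which encodes thrombospondin 1 and had 51.96, 28.9 and 59.1 CPM in cKO pituitaries, against 31.2, 15.8 and 23.00 CPM in cHet pituitaries (1.01, adjusted p = 0.0348, edgeR with the block).

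The fibroblast and smooth muscle list, which holds Col6a1, had 15 of 18 tested genes above 0 and 3 below, with a median of 0.32. Col6a1 was its 1 call with the block (0.13% of all genes tested rose). Fn1, which encodes fibronectin, had 39.1, 32.4 and 24.4 CPM in cKO pituitaries, against 25.1, 11.9 and 13.5 CPM in cHet pituitaries (0.92), without a call. Fbln2, fibulin 2, had 49.5, 46.9 and 45.02 CPM in cKO pituitaries, against 29.00, 23.9 and 26.4 CPM in cHet pituitaries, with separate groups (0.83; with the block adjusted p = 0.0782, edgeR). Lum (-0.29) and Col5a1 (-0.08) were on the lower side of the list.

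Slitrk6, Rnf2 and Nrbp2 also rose with the block. Slitrk6, a neuronal adhesion protein, had 47.4, 52.3 and 61.8 CPM in cKO pituitaries, against 23.7, 33.1 and 30.7 CPM in cHet pituitaries (0.89, adjusted p = 0.0366, edgeR with the block). Rnf2, a ubiquitin ligase of Polycomb complex 1, had 32.8, 42.6 and 45.9 CPM in cKO pituitaries, against 18.4, 22.3 and 20.5 CPM in cHet pituitaries (0.99, adjusted p = 0.046, edgeR with the block). Nrbp2 had 204, 127 and 80.9 CPM in cKO pituitaries, against 104, 76.5 and 62.5 CPM in cHet pituitaries (0.70, adjusted p = 0.0327, edgeR with the block). Slitrk6 and Rnf2 had separate groups, and Nrbp2 overlapped.

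Igf2 and Cdkn1c, both imprinted genes, rose with the block. Igf2, the insulin-like growth factor, had 229.5, 32.02 and 32.7 CPM in cKO pituitaries, against 43.5, 17.4 and 23.3 CPM in cHet pituitaries. Replicate 1 of cKO was far above all others. The gene passed with the block (1.39, SE 0.26, adjusted p = 0.0178) and not with genotype alone (1.78, SE 0.54, adjusted p = 0.511, edgeR). Without the libraries numbered 1 the blocked value was 0.66 (adjusted p = 0.498, edgeR). Cdkn1c, an imprinted cell cycle inhibitor, had 135, 42.2 and 74.4 CPM in cKO pituitaries, against 42.6, 21.7 and 42.6 CPM in cHet pituitaries (1.20, SE 0.31; with the block 1.16, adjusted p = 0.00326, edgeR). Its groups overlapped slightly and its cKO library was the higher within each number.

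H19, the noncoding neighbour of Igf2, had 99.4, 7.03 and 15.6 CPM in cKO pituitaries, against 16.7, 7.60 and 11.04 CPM in cHet pituitaries. Its fold change of 1.74 moved to -0.039 without cKO replicate 1. Of 16 growth hormone and IGF signalling genes tested, 13 were above and 3 below 0 (median 0.22). Igf2 was the 1 call, with the block (0.13% of all genes tested rose). Igf1r, the IGF receptor, had 329.7, 239.8 and 236 CPM in cKO pituitaries, against 167, 248 and 159 CPM in cHet pituitaries (0.49), Igfbp3 stood at -0.12 and Socs3 at -0.21. An imprinted list added after values were seen had 24 of 26 genes tested, 12 above and 12 below 0, a median of -0.00, and Phlda2 at 0. Igf2 and Cdkn1c were its 2 calls, both with the block, where 0.13% of all genes tested rose. Mirg, a noncoding RNA of the Dlk1 region, had 11.2, 13.7 and 12.1 CPM in cKO pituitaries, against 21.1, 30.9 and 18.1 CPM in cHet pituitaries, with separate groups and no call (-0.90).

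**Figure D3:**
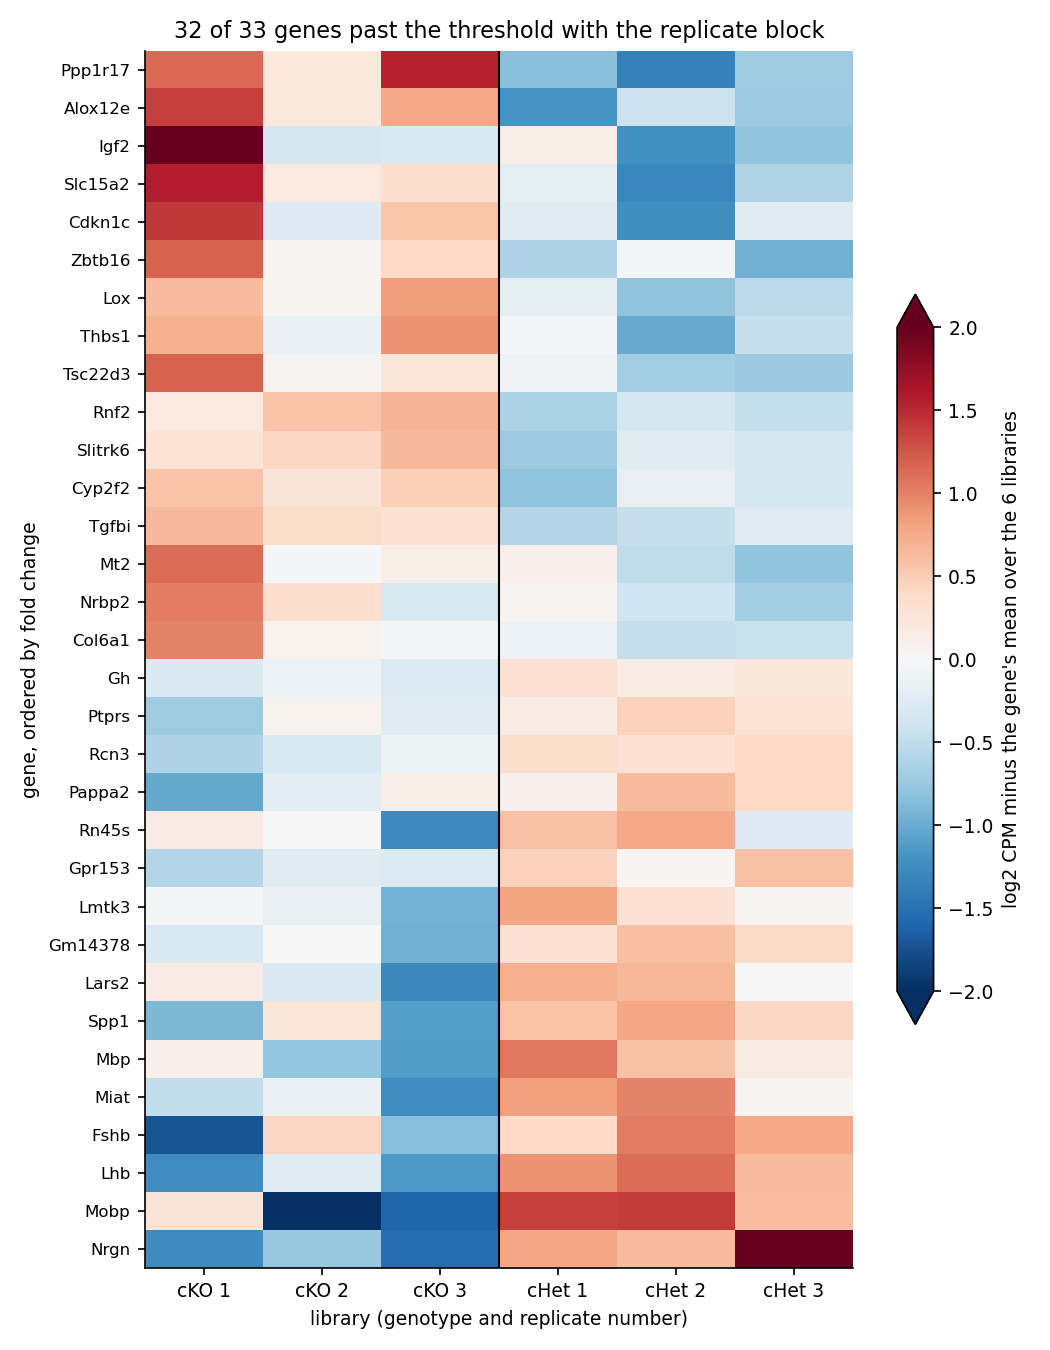
Log2 CPM of 32 of the 33 genes called with the replicate block, each minus its own mean over the 6 libraries (colour limits -2 and 2), with cKO libraries in the left columns and cHet libraries in the right ones. All 16 genes that rose are higher in cKO in 3 of 3 pairs, and all 16 shown that fell are higher in 0 of 3. The fit that chose these genes compares the same pairs, so this agreement follows largely from the choice.

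The myelin genes Mbp and Mobp fell with the block. On an oligodendrocyte list added after values were seen, 11 of 20 genes were tested, 8 below 0 and 3 above, with a median of -0.70. With the block 3 members fell (0.139% of all genes tested), Mbp and Mobp among them. Mbp, myelin basic protein, had 57.8, 31.6 and 25.01 CPM in cKO pituitaries, against 112, 81.4 and 60.4 CPM in cHet pituitaries, with separate groups (-1.16, SE 0.27; with the block -1.18, adjusted p = 0.000654, edgeR). Mobp, another central myelin protein, had 9.56, 1.95 and 2.65 CPM in cKO pituitaries, against 20.6, 21.2 and 12.3 CPM in cHet pituitaries, from 23, 5 and 9 tags in cKO libraries and 47, 39 and 40 tags in cHet libraries (-1.95; with the block -2.05, adjusted p = 0.0322, edgeR).

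The summed level of the oligodendrocyte list was 261, 226 and 205 CPM in cKO pituitaries, against 476, 381 and 254 CPM in cHet pituitaries. No member was at 0 in all libraries. Ugt8a (0.17) and Trf (0.10) were on the higher side. The lineage factor Sox10 was too low to test in the gland (at most 2.64 CPM in any library). In brain regions of cKO mice Mbp averaged at least 5086 CPM, against at most 112 CPM in any gland library. The neural content of each gland sample and its part in the difference was not tested.

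No pan-neuronal gene was called by either fit. All 21 were tested, 6 above and 15 below 0, with a median of -0.26. All cKO libraries were above all cHet libraries for 1 of them and below for 5, where 5.63% and 5.97% of all genes had such groups. Summed levels were 2268, 2244 and 1893 CPM in cKO pituitaries, against 3213, 2729 and 1825 CPM in cHet pituitaries, and overlapped. Nefm, a neurofilament, had 11.2, 10.5 and 10.6 CPM in cKO pituitaries, against 23.3, 20.1 and 26.98 CPM in cHet pituitaries, with separate groups (-1.13, SE 0.28; with the block adjusted p = 0.0963, edgeR). Elavl3, a neuronal RNA-binding protein, had 3.33, 6.25 and 6.77 CPM in cKO pituitaries, against 18.4, 10.9 and 12.3 CPM in cHet pituitaries (-1.32; with the block adjusted p = 0.219, edgeR), with separate groups. Microtubule-associated protein 2, listed as Mtap2, ran the other way with 165, 173 and 159 CPM in cKO pituitaries, against 142, 140.1 and 120.2 CPM in cHet pituitaries (0.31), and Syt1 stood at 0.29.

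Nrgn and Miat, both expressed in neurons, fell with the block. Nrgn, neurogranin, had 2.49, 3.51 and 2.06 CPM in cKO pituitaries, against 10.1, 9.23 and 26.1 CPM in cHet pituitaries, from 6, 9 and 7 tags in cKO libraries and 23, 17 and 85 tags in cHet libraries. It had separate groups and the lowest fold change of the 17 genes that fell with the block (-2.44, adjusted p = 0.0257, edgeR), with cHet replicate 3 well above the others. Miat, a long noncoding RNA, had 26.2, 33.6 and 15.6 CPM in cKO pituitaries, against 65.03, 72.8 and 38.02 CPM in cHet pituitaries and fell with the block (-1.23, adjusted p = 0.00206, edgeR). Cplx1, complexin 1, had 2.08, 1.56 and 1.18 CPM in cKO pituitaries, against 8.79, 9.77 and 5.21 CPM in cHet pituitaries, with separate groups and no call (-2.27; with the block adjusted p = 0.0924, edgeR). Jakmip2 (-0.96, adjusted p = 0.0553) and Rbm28 (-0.98, adjusted p = 0.0556), both values from the fit with the block, also had separate groups and did not pass with the block in edgeR. The part of the neuronal genes above in these values was not tested.

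The GABA list, genes of inhibitory neurons, had 15 of 26 members tested, 5 above and 10 below 0, with a median of -0.27, no call, and Dlx2 among the members at 0. Gad1 and Slc32a1 were too low to test. Of 18 hypothalamic peptide genes, 3 were tested, Avp, Oxt and Pdyn, and Crh, Vip and Nms were at 0. The summed level of all 18, tested or not, was 32.4, 35.1 and 35.02 CPM in cKO pituitaries, against 44.8, 21.7 and 35.3 CPM in cHet pituitaries. Avp, vasopressin, had 10.8, 4.69 and 16.2 CPM in cKO pituitaries, against 9.23, 7.60 and 9.51 CPM in cHet pituitaries, with overlapping groups.

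Rcn3, a calcium-binding protein of the endoplasmic reticulum, had 122, 152 and 175 CPM in cKO pituitaries, against 241, 229.7 and 248 CPM in cHet pituitaries (-0.69, adjusted p = 0.0135, edgeR with the block). Ptprs, a receptor tyrosine phosphatase, had 169, 291 and 234 CPM in cKO pituitaries, against 306, 383 and 334 CPM in cHet pituitaries (-0.58, adjusted p = 0.033, edgeR with the block). Pappa2, a protease that cleaves IGF-binding proteins, had 67.3, 118 and 149 CPM in cKO pituitaries, against 148, 213 and 180.3 CPM in cHet pituitaries (-0.73, adjusted p = 0.0309, edgeR with the block). Rcn3 and Ptprs had separate groups, and Pappa2 overlapped.

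Gpr153, an orphan receptor gene, had 66.5, 84.7 and 82.7 CPM in cKO pituitaries, against 138, 103 and 151 CPM in cHet pituitaries (-0.74, adjusted p = 0.0309, edgeR with the block). Lmtk3, a kinase gene, had 59.5, 54.3 and 31.5 CPM in cKO pituitaries, against 104, 73.8 and 62.2 CPM in cHet pituitaries (-0.75, adjusted p = 0.046, edgeR with the block). Gm14378 had 75.2, 93.3 and 47.96 CPM in cKO pituitaries, against 114, 142 and 122 CPM in cHet pituitaries (-0.85, adjusted p = 0.0134, edgeR with the block). All 3 had separate groups. Also among the 17 were Rn45s (-0.73, adjusted p = 0.000455) and Lars2, mitochondrial leucyl-tRNA synthetase, with 31380, 22800 and 11490 CPM in cKO pituitaries, against 46500, 44490 and 28210 CPM in cHet pituitaries (-0.94, adjusted p = 0.000126, edgeR with the block). Both overlapped between groups. Rn45s is a ribosomal RNA that polyA selection is meant to remove. Lars2 took 3.14, 2.33 and 1.46% of tags in cKO libraries and 4.003, 3.66 and 2.96% in cHet libraries. The shares of Rn45s and Lars2 were both lowest in cKO replicate 3. In brain libraries they were lower, at most 1.89% for Rn45s and 0.354% for Lars2. The part of ribosomal RNA reads in the Lars2 tags was not tested. With Rn45s and Lars2 left out, 29 genes were called with the block.

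**Figure D4:**
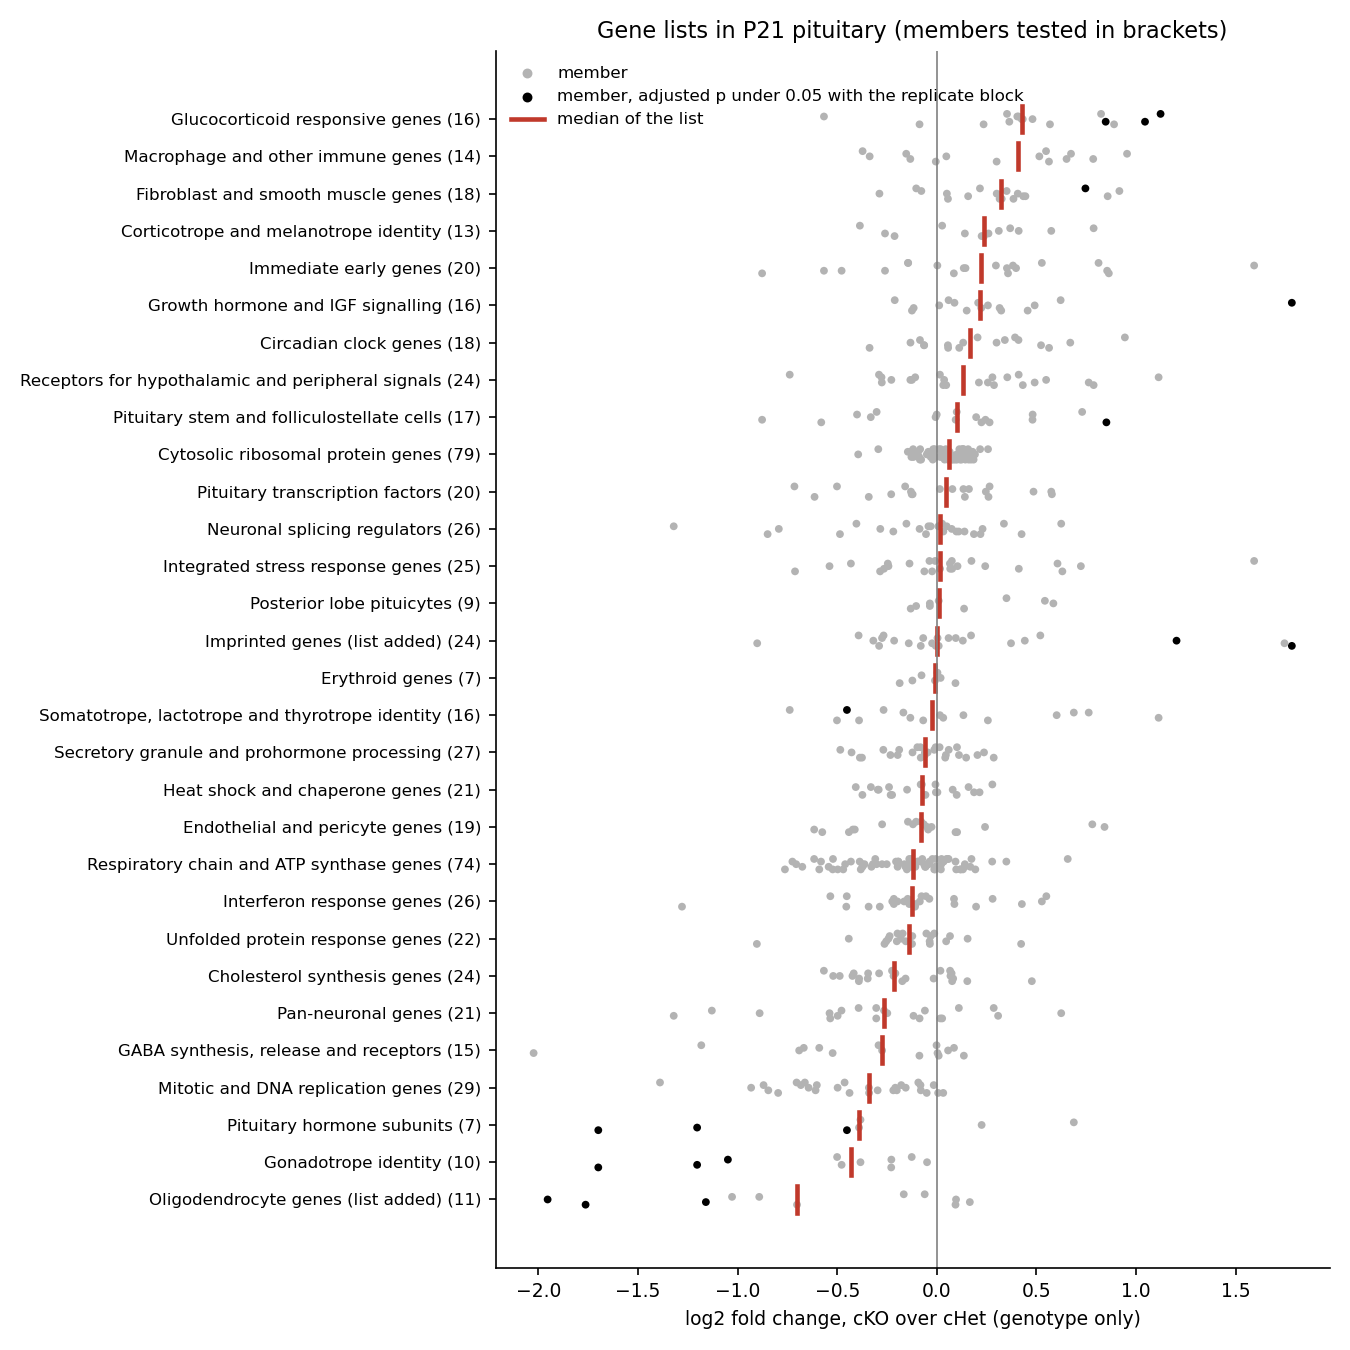
Log2 fold change of cKO over cHet for each tested member of the gene lists (points, black where called with the replicate block) with the list median (red bar); lists with under 5 tested members are left out. Gonadotrope members all lie below 0 (median -0.43) and 14 of 16 glucocorticoid-responsive members above 0 (median 0.43).

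The lists of general cell functions in this and the next paragraph had no call by either fit. The respiratory chain and ATP synthase list had 22 of 74 genes above and 52 below 0 (median -0.12), and 14 of 74 had every cKO library below every cHet library (18.9%, against 5.97% of all genes tested) and 0 of 74 above (5.63% of all genes). Ndufv3, a subunit of complex I, had 31.6, 24.2 and 32.96 CPM in cKO pituitaries, against 52.7, 42.4 and 55.2 CPM in cHet pituitaries (-0.76; with the block adjusted p = 0.0924, edgeR), and Cox6b1, of complex IV, had 63.2, 63.3 and 62.1 CPM in cKO pituitaries, against 111, 75.5 and 94.8 CPM in cHet pituitaries (-0.58). Ndufa5 (0.66) and Atp5o (0.35) were on the higher side.

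Of 29 mitotic and DNA replication genes tested, 27 were below 0 and 2 above, with a median of -0.34. No member had separate groups, where 5.63% of all genes tested had every cKO library above and 5.97% below. Cytosolic ribosomal protein genes had 54 of 79 above 0 (median 0.06), and cholesterol synthesis genes 16 of 24 below 0 (median -0.21). Macrophage and other immune genes had 9 of 14 tested genes above 0 (median 0.41), among them Csf1r, the receptor of colony-stimulating factor 1, with 32.01, 30.5 and 36.2 CPM in cKO pituitaries, against 19.8, 17.9 and 24.5 CPM in cHet pituitaries and separate groups (0.65).

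Stress and secretory lists were also without a call. Integrated stress response genes, which act downstream of kinases such as GCN2, had 13 of 25 tested genes above 0 (median 0.02), and unfolded protein response genes 4 of 22 (median -0.14). Secretory granule and prohormone processing genes had 10 of 27 above 0 (median -0.06). Receptors for hypothalamic and peripheral signals had 16 of 24 above 0 (median 0.13). Neuronal splicing regulators, the class of proteins to which Nova1 belongs, had 14 of 26 above 0 (median 0.02).

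The same genotypes were then compared with brain. In the fit with hypothalamus (n = 4 per genotype), the genotype effect differed between pituitary and hypothalamus for 28 of 16151 genes (0.173%), 15 with a higher value in pituitary (0.0929%) and 13 with a lower one (0.0805%). The count was 122 with the replicate block, 436 with DESeq2 and 19 to 141 leaving out 1 pituitary library (141 without cKO replicate 2). Nova1 was not among them, with -0.84 in pituitary and -0.61 in hypothalamus (difference -0.23, SE 0.41, adjusted p = 0.864, edgeR; 0.13 against the mean of 4 brain regions). Rbm3, a cold-induced RNA-binding protein, was: it had 131, 110.5 and 109.5 CPM in cKO pituitaries, against 91.8, 128 and 61.02 CPM in cHet pituitaries, overlapping between genotypes (0.34, SE 0.21, adjusted p = 0.833), against a log2 fold change of 1.62 in hypothalamus (difference -1.26, SE 0.22, adjusted p = 0.0186, edgeR).

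Genes called in the same direction in all 4 brain regions of the study (substantia nigra, caudate putamen, hypothalamus and periaqueductal gray, with 4 samples a genotype in each) were looked up in the gland. Among the caudate putamen samples, 1 cKO sample has a title that conflicts with its tissue tag, and the tag was used. Of 14227 genes tested in all 4 regions, 107 (0.752%) were higher and 180 (1.27%) lower in cKO. In pituitary 96 of the 107 were tested: 67 were above and 29 below 0, with a median of 0.12, against 0.40 in hypothalamus, whose values helped to choose the genes. Of the 180, 166 were tested: 112 were below and 54 above 0, with a median of -0.15, against -0.41 in hypothalamus. None of either set was called in pituitary with genotype alone. With the block Slc15a2 rose and Mobp fell, where 0.13% of all genes tested rose and 0.139% fell. The brain libraries held 15419383 to 24333817 tags, against 2238743 to 3104026 tags in pituitary libraries. The part of depth and sample number in the lack of calls in the gland was not tested. All cKO libraries were above all cHet libraries for 11.5% of the first set and 1.20% of the second, against 5.63% of all genes tested. They were below for 1.04% of the first set and 12.7% of the second, against 5.97% of all genes tested.

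**Figure D5:**
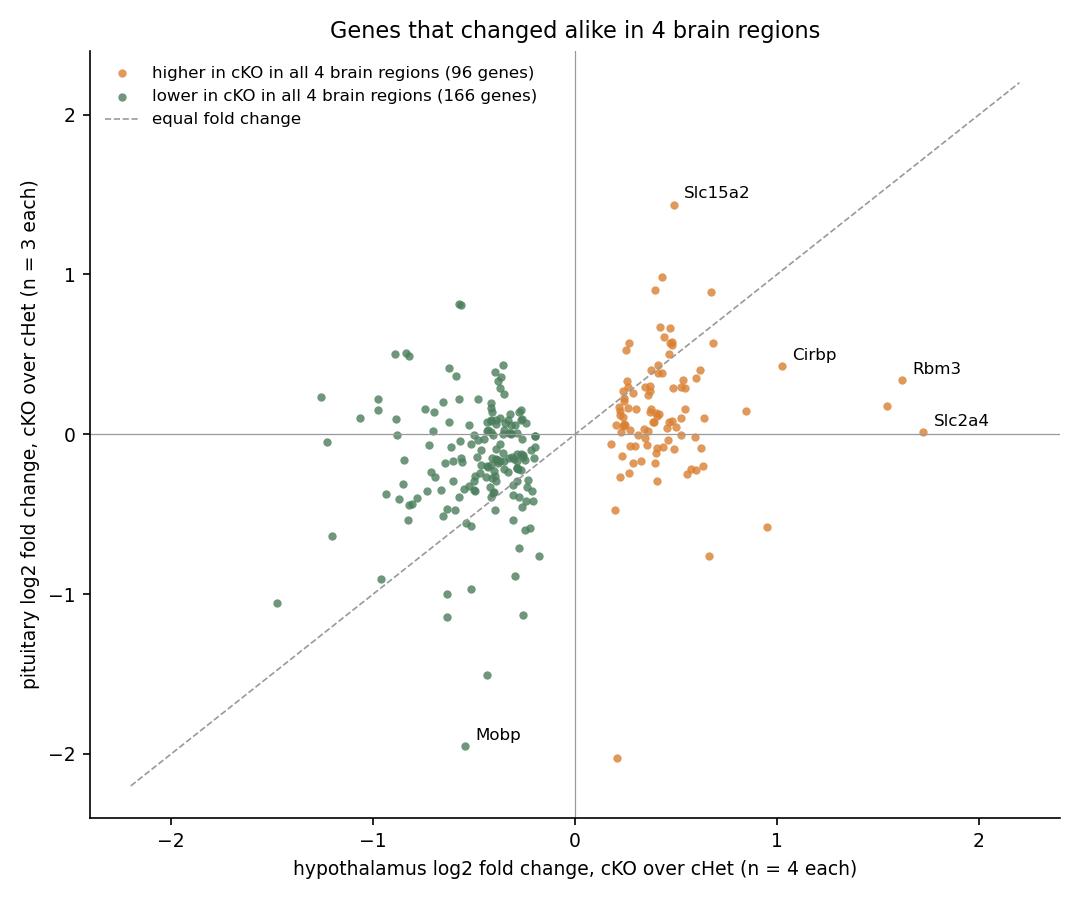
Log2 fold change of cKO over cHet in hypothalamus (x axis, n = 4 each) and pituitary (y axis, n = 3 each) for genes called in the same direction in 4 brain regions, 96 higher (orange) and 166 lower (green); the dashed line marks equal fold changes. In pituitary the medians are 0.12 and -0.15, and in hypothalamus, which helped to choose the genes, 0.40 and -0.41.

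Single genes of the brain-wide sets varied in the gland. Fkbp5, not called in the gland, was higher in cKO in all 4 regions (hypothalamus 0.67, periaqueductal gray 0.50, caudate putamen 0.50, substantia nigra 0.63). Tsc22d3, Zbtb16 and Mt2, which rose in the gland with the block, passed in none of the 4. Cirbp, a cold-inducible relative of Rbm3, had 123, 174 and 94.5 CPM in cKO pituitaries, against 80.4, 152 and 62.5 CPM in cHet pituitaries (0.43), higher in the cKO library of each number with overlapping groups. Hexa, a lysosomal hexosaminidase, had 83.1, 77.7 and 97.1 CPM in cKO pituitaries, against 116, 104 and 136 CPM in cHet pituitaries, with separate groups and no call (-0.47, SE 0.17, adjusted p = 0.587, edgeR; hypothalamus -0.64). Slc2a4, a glucose transporter, stood at 0.01 (SE 0.55) in pituitary and 1.72 in hypothalamus, and Dock5 at -0.05 (SE 0.27) and -1.23. The gland value of Slc2a4 rests on 11, 15 and 7 tags in cKO libraries and 12, 5 and 13 tags in cHet libraries. Neither difference between the tissues passed (adjusted p = 0.136 for Slc2a4 and 0.0729 for Dock5, edgeR's interaction test). Hsph1 (-0.37), Trf (0.10), 2900002K06Rik (0.18) and Lipa (-0.16) were not called in the gland, and 9630013A20Rik was too low to test, with 0, 1 and 4 tags in cKO libraries and 4, 0 and 0 tags in cHet libraries.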

How the data were processed

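Libraries were TruSeq with polyA selection on Trizol and RNeasy RNA, per the labels' protocols. Per the submitters' processing notes, the authors worked on mm10 and with edgeR. Which aligner and counter they ran, and how reads with several matches were handled, is not given in the sources used, so near-identical and overlapping genes are uncertain. The authors deposited tag numbers per gene; those of the pituitary are whole and were used as counts. The deposited tag numbers of brain regions are partly fractional and were taken for expected counts and rounded to whole numbers. Deposited RPKM values were used only to check the tag numbers.

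After filterByExpr (a minimum count of 10 and total of 15) and TMM scaling, genes were tested with edgeR 4.0.16 (quasi-likelihood test, R 4.3.3) with Benjamini-Hochberg adjustment over all genes tested and a threshold of 0.05, which "rose", "fell" and "called" refer to. Fits were checked on simulated data. CPM values use the TMM-scaled library sizes. The fit with genotype alone is the primary one. Libraries of the same replicate number deviated together, with correlations of 0.144, 0.137 and 0.138 over 12265 genes. All other combinations were negative. These are correlations of deviations from the group means (log2 CPM with a prior count of 3). Deviations cancel out over the libraries of a genotype, so the negative values follow in part from the positive ones and are no separate evidence. From these same expression values the numbers were taken to pair the samples, although the labels do not say what a number marks. The fit with the block has 2 residual degrees of freedom. The alternatives also used DESeq2 1.42.0 and limma 3.58.1.

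Gene names and sequences came from RefSeq tables of GRCm38.p6, in which 22959 of 23038 Entrez numbers were found. The samples, gene lists and tests were chosen with earlier results of these data known. Named genes were Nova1, Nova2, Impact, Rbm3, the hormone subunits, the 10 genes of lowest p in each direction, the 2 of lowest p per direction and any call in a described list, the 10 most abundant per exon length, the 10 of lowest interaction p per direction, and the 10 of lowest mean p rank across brain regions. Gad2, Gad1, Slc32a1, Oxt, Pdyn, Gnrhr, Nr5a1, Foxl2, Fkbp5, H19, Sox10, Avp and Csf1r, the list members named at 0 tags, and the genes called with the block alone were named after their values were seen. A few genes that these rules name are not reported here.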

Additional observations from a re-analysis of the deposited data

Results flagged for a closer look

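For 18 genes described here the genotype effect differed between pituitary and hypothalamus and the gene was among those of lowest p in its direction (edgeR's interaction test, Benjamini-Hochberg adjusted p under 0.05 for each). Of the 18, 12 lost the call in at least 1 of 11 alternatives and 6 in none, namely Abca8a, Epcam, Nrgn, Rbm3, Slitrk6 and Vsnl1. The call was lost in 4 alternatives for 4933404M02Rik, in 3 for Fn1, Chn2, Plxnd1, Jakmip2 and Tmtc1, in 2 for Miat, Fbln2 and Creb3l2, and in 1 for Col12a1, Col5a2 and Pgm2. The values are the log2 fold change of cKO over cHet in pituitary minus that in hypothalamus. On the higher side they were Col12a1 1.80, Fn1 1.76, Abca8a 1.61, Fbln2 1.21, Chn2 1.19, Col5a2 1.13, Slitrk6 1.11, Creb3l2 0.85 and Tmtc1 0.69. The matrix genes among them had fold changes of opposite sign in the tissues: Fn1 stood at 0.91 in pituitary and -0.85 in hypothalamus, and Col12a1 at 1.01 and -0.79. Choosing genes by a low p of this difference favours opposite signs. In the gland alone neither Fn1 nor Col12a1 passed (adjusted p = 0.537 and 0.499, with the block 0.114 for both, edgeR). Col12a1 had 84.8, 38.3 and 31.5 CPM in cKO pituitaries, against 25.5, 26.1 and 23.9 CPM in cHet pituitaries. Abca8a, a lipid transporter gene, stood at 0.50 in pituitary and -1.11 in hypothalamus. The value of 8.88 for 4933404M02Rik rests on 6, 9 and 4 tags in cKO pituitaries and none in cHet pituitaries. The gene was too low to test in the gland alone and entered this fit through hypothalamus. Its value depends on the prior count and is no bound.

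On the lower side the differences were Vsnl1 -3.51, Nrgn -2.79, Epcam -1.43, Miat -1.42, Rbm3 -1.26, Plxnd1 -1.04, Jakmip2 -1.004 and Pgm2 -0.89. Vsnl1, which encodes a neuronal calcium sensor, had 1, 3 and 0 tags in cKO pituitaries and 20, 8 and 13 tags in cHet pituitaries; it was too low to test in the gland alone, entered this fit through hypothalamus, and its value depends on the prior count. Epcam, an epithelial adhesion gene, was abundant and near equal in the gland, with 421, 429.9 and 547 CPM in cKO pituitaries, against 467, 409.9 and 551 CPM in cHet pituitaries, and its difference came from hypothalamus (1.40). Several of these genes are neuronal and low in the gland, and the neuronal content of each sample and its part in these values was not tested.

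In hypothalamus, a single library stood apart from the other 3 of its genotype for 2 of these genes, at 2.95 CPM for Fbln2 in cKO and 1.51 CPM for 4933404M02Rik in cHet. Chance alone sets a library apart in this way in about 1 in 20 groups.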

How the results depend on the processing

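Depth of 2238743 to 3104026 tags, of which up to 40.8% were Rn45s, and 3 libraries per genotype stand behind these values. Against 1 call with genotype alone, counts were 33 with the replicate block, 75 with no filter on low counts, 3 with DESeq2 (Alox12e, Cyp2f2, Lhb), 0 with the Rn45s share as a covariate (900 at an unadjusted p under 0.05), and 0 to 9 leaving out 1 library at a time; RLE scaling, a mean count of 30, limma-voom and leaving out Rn45s each gave 1. With the replicate block, counts were 61, 87 and 2 without the libraries numbered 1, 2 and 3, 29 without Rn45s and Lars2, 33 with RLE scaling and 14 with DESeq2; these blocked settings were chosen after seeing the data. Without number 3, Lhb was among the calls. The blocked calls kept their direction in every setting that tested them, which follows largely from choosing genes that moved alike in 3 of 3 pairs. The difference from hypothalamus had 28 calls, 122 with the replicate block, 74 with no filter, 551 against the mean of 4 brain regions, 436 with DESeq2 and 19 to 141 leaving out 1 pituitary library, of which cKO replicate 2 gave 141 and cHet replicate 2 gave 80; against the mean of 4 regions Nova1 turned to 0.13. Of the genes that turned direction in the gland, H19 was called with no filter and with the block without number 2, and the others in no setting; the causes were not tested. With the Rn45s covariate these were Foxl2 0.059, Nova2 0.026, Nr5a1 0.088, Socs3 0.019 and Trf -0.10. With limma-voom they were Dock5 0.018, Impact 0.019, Slc2a4 -0.19 and Ugt8a -0.025. Slc2a4 was -0.048 with the block, -0.046 with RLE and the block, -0.035 with DESeq2 and the block, and -0.043 without Rn45s and Lars2. With the block and without number 1 they were 2900002K06Rik -0.46, Dock5 0.24 and Ugt8a -0.25. Without number 2 they were Bcl6 0.26, Col5a1 0.11, Dock5 0.012, Impact 0.12, Nkx2-1 0.34, Rax 0.37 and Slc2a4 -0.55. Without number 3 they were Bhlhe41 0.083, Foxl2 0.14, Lipa 0.081, Nr5a1 0.10 and Socs3 0.040. Leaving out 1 library, the ranges were 2900002K06Rik -0.22 to 1.00, Bcl6 -0.30 to 0.25, Bhlhe41 -0.35 to 0.023, Col5a1 -0.15 to 0.058, Dock5 -0.22 to 0.22, Foxl2 -0.67 to 0.10, H19 -0.039 to 2.24, Impact -0.11 to 0.10, Lipa -0.32 to 0.17, Nkx2-1 -0.62 to 0.28, Nr5a1 -0.38 to 0.10, Pomc -0.13 to 0.48, Rax -0.53 to 0.33, Rora -0.53 to 0.030, Slc2a4 -0.32 to 0.37, Socs3 -0.45 to 0.091, Trf -0.089 to 0.27 and Ugt8a -0.46 to 0.47.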
